A study of Caenorhabditis elegans with 6 samples.

Results

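The 186 genes described here are autosomal protein-coding genes of Caenorhabditis elegans whose 22G-RNAs were plentiful in the lotr-1 allele xf58 and scarce in the lotr-1 alleles xf60 and xf61. They were chosen by their CPM, the count on a gene divided by the total of its library and multiplied by 1000000. A gene was taken if the xf58 library held at least 20 CPM, at least 4 times the level in the xf60 library and at least 4 times that in the xf61 library. Its xf58 level also had to lie between 0.125 and 8 times the mean of the wild-type libraries. Histone, ribosomal protein, F-box, MATH and sperm gene families (his, rpl, rps, fbxa, fbxb, fbxc, math, bath, msp, ssp, ssq, nspd and smz) were left out by name. The selection took 186 of 16462 genes that it could have taken, among 22336 loci in all. Since all 6 libraries entered the selection, the levels of these genes are a description and carry no test.

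Small RNAs came from whole gravid adults 63 hours after plating, and 22G-RNAs are reads with a length of 22 bases and a G at the 5′ end that map antisense to exons. Wild-type was strain N2 (3 libraries), and each mutant was a lotr-1 deletion made by genome editing in N2 and outcrossed, with 1 library per allele. The allele xf58 lacks most of the LOTUS domain but stays in frame, so that the Tudor domain can still be made, whereas xf60 and xf61 are deletions that bring a frameshift and a premature stop. As an allele was sequenced once, allele and worm population cannot be told apart. In whole worms, fewer germ cells and fewer 22G-RNAs per cell cannot be told apart either.

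22G-RNAs are made by RNA-dependent RNA polymerases, which use a target RNA as template. Those bound by WAGO-class Argonautes silence their targets and are amplified with the help of mutator proteins, whereas those bound by CSR-1 lie on genes that stay expressed in the germline. LOTR-1 carries LOTUS and Tudor domains and is found with the helicase ZNFX-1 in Z granules, a compartment of the germ granules in which small RNA pathways are organised. A gene with many 22G-RNAs is thus a template of this machinery, and its count says nothing on the level of its mRNA.

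Total 22G-RNA counts lay between 3706296 and 4520488 per library. The lotr-1 gene itself had 245, 293 and 275 counts in wild-type, 88 in xf58, 20 in xf60 and 47 in xf61, all below wild-type. The summed 22G-RNA level on 21 oocyte and embryo marker genes was 694 to 757 CPM in wild-type, and the mutants had 433 (xf58), 415 (xf60) and 393 CPM (xf61). The median log2 ratio to wild-type over 19 of them was −0.59 (xf58), −0.81 (xf60) and −0.63 (xf61). Over the background genes described below it was −0.78, −1.15 and −1.06, so these sums show no fall beyond that of other genes. The 59 genes of the sperm families summed to 56.5 to 79.3 CPM in wild-type, 126 in xf58, 91.1 in xf60 and 117 in xf61. On 17 adult soma markers the sum was 22.7 to 29.0 CPM in wild-type, 14.3 in xf58, 28.0 in xf60 and 18.8 in xf61. Of these markers, 1 of the oocyte list (perm-2) and 0 of the soma list had no count in any library. These sums are levels of 22G-RNAs and not of the marker transcripts, none of the oocyte or soma markers belongs to the 186 genes, and the part of germline makeup in the values below was not tested.

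The 186 genes carried about as large a share of all 22G-RNAs in xf58 as in wild-type, and a far smaller one in the frameshift alleles. The selection sets the latter, since its limits keep each frameshift share at least 4-fold below that of xf58. The genes held 3.79%, 3.79% and 3.82% of the counts in the wild-type libraries (3.80% ± 0.0138, SD, n = 3), 4.07% in the xf58 library, 0.457% in that of xf60 and 0.565% in that of xf61. The median gene had 83.6, 87.2 and 89.4 CPM in wild-type, 57.9 CPM in xf58, 8.29 CPM in xf60 and 8.69 CPM in xf61. A sum close to wild-type in xf58 thus went with a lower median, and the 12 genes with the highest level in xf58 held 45.4% of the counts of all 186 there. Without rnh-1.3 and hmg-11, the highest pair, the share was 3.10% to 3.15% in wild-type, 3.30% in xf58, 0.342% in xf60 and 0.395% in xf61.

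Among the 7464 genes of the same kind with a wild-type mean of at least 2.5 CPM, the background used here, the median log2 ratio to wild-type came to −0.78 (xf58), −1.15 (xf60) and −1.06 (xf61). Over the 186 genes it was −0.47, −3.15 and −3.10 in the same order, so the distance from the background was 0.31 in xf58 and −1.997 and −2.04 in the frameshift alleles, distances that the selection sets in part. The sign of the xf58 median depended on the scaling. With TMM factors it was 0.22, beside −0.11 over the background, and the distance between the groups was 0.33. A scaling factor acts on all genes of a library alike, so this distance can hardly move with the scaling. The plot of xf58 against the frameshift alleles shows the genes along the lower edge of the cloud, over a wide range of xf58 levels.

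**Figure D1:**
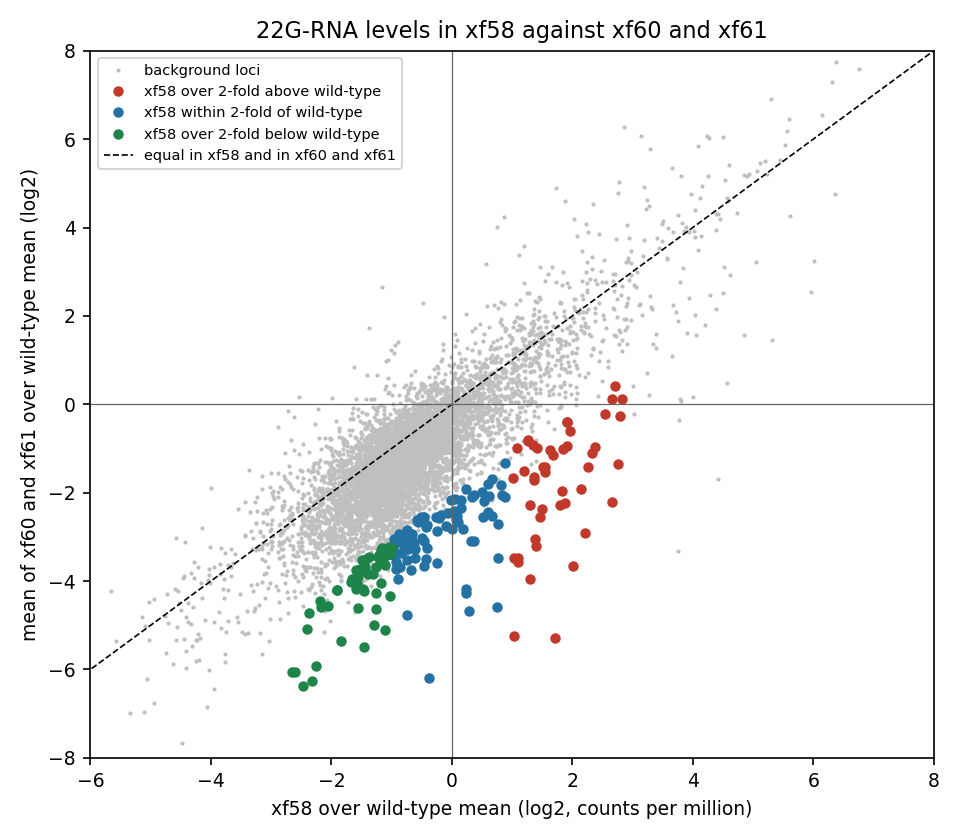
Each point is a gene, with the log2 ratio of its xf58 level to the wild-type mean on the x axis and that of the mean of xf60 and xf61 on the y axis (CPM with a prior count of 2). Grey points are the 7464 background genes and coloured points the 186 selected genes, split by their xf58 level into 46 above, 87 within and 53 below 2-fold of wild-type. The coloured points lie below the dashed line of equal levels because the selection placed them there.

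The description of these genes as having kept their 22G-RNAs in xf58 held for fewer than all of them. In xf58, 87 genes lay within 2-fold of the wild-type mean, 46 lay more than 2-fold above it and 53 more than 2-fold below it. Among all background genes, 8.19% lay more than 2-fold above wild-type in xf58 and 39.5% more than 2-fold below it. The selection asked for a high xf58 level, which the background did not have to meet, so it sets this contrast in part. Under TMM scaling the split was 65 above, 108 within and 13 below. Both frameshift libraries lay more than 2-fold below the wild-type mean for 169 of the 186 genes (background 50.1%), and below each wild-type library for 181 (background 79.2%). The selection fixes the former for every gene at or below 2-fold of wild-type in xf58. As the wild-type libraries were close, it largely sets the latter for these genes too. The xf58 library lay above each wild-type library for 74 genes (background 16.0%), below each of them for 106 (background 76.2%) and inside their range for 6. The selection acts on these xf58 counts in the same way, so their distance from the background is not a finding. The wild-type libraries themselves were close, with a median coefficient of variation of 5.402% over the 186 genes and 9.03% over the background. The background was not matched to the 186 genes in level, and counting error weighs more on low counts. These values thus do not compare how steady the genes are.

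**Figure D2:**
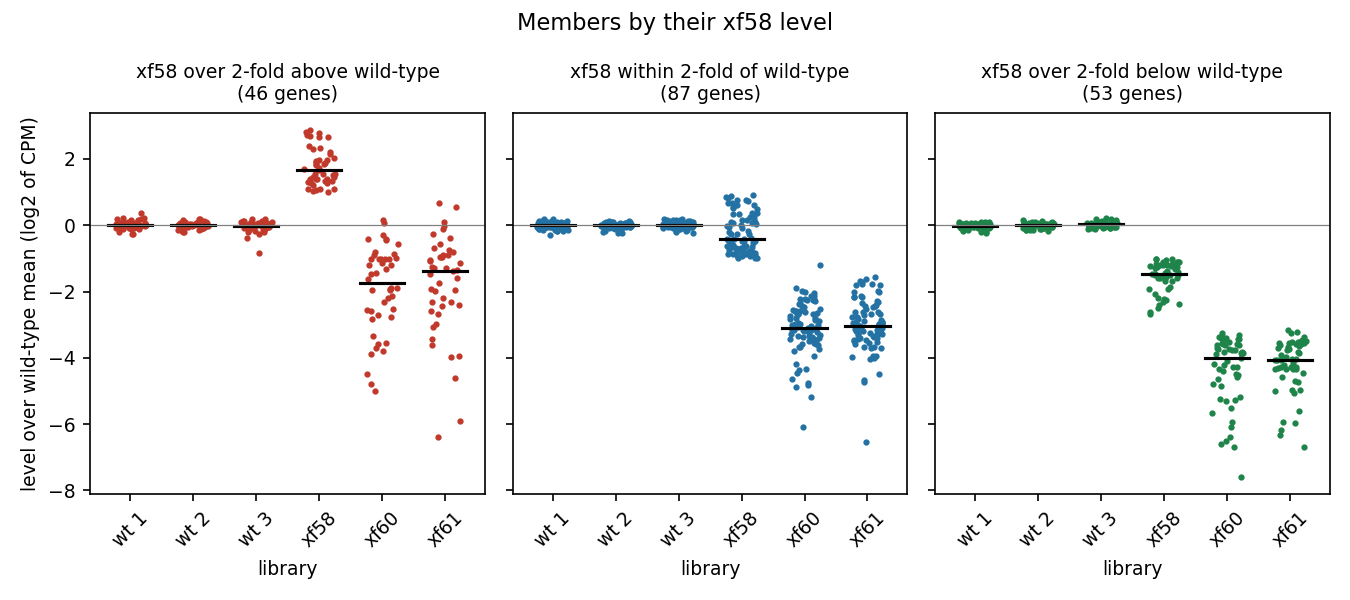
The y axis gives the log2 ratio of each gene's CPM to its wild-type mean, and the x axis the 6 libraries, for the 46, 87 and 53 genes above, within and below 2-fold of wild-type in xf58. Points are genes and bars are medians over genes. The wild-type libraries lie near 0, and the xf60 and xf61 bars lie below 0 in each panel.

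The genes with a surplus in xf58 had a median of 58.8 CPM in wild-type, 229 CPM in xf58, 14.9 CPM in xf60 and 14.7 CPM in xf61. Their median ratio of xf58 to wild-type was 3.20, and the wild-type level was a median 2.92-fold above the mean of the frameshift alleles. Of these 46 genes, 29 lay more than 2-fold below wild-type in both frameshift alleles, and 10 lay within 2-fold of wild-type in both. They made up 41.9% of the xf58 counts of all 186 genes.

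The largest count of them was on qdpr-1 (WBGene00011398, WBcel235 chromosome III, 13393910 to 13394979), which encodes quinoid dihydropteridine reductase, an enzyme that recycles tetrahydrobiopterin. It had 478.5, 470 and 447 CPM in wild-type (465 ± 16.3, SD, n = 3), 1718 CPM in xf58, 79.2 CPM in xf60 and 118 CPM in xf61. The xf58 library was 3.69-fold above wild-type and 14.5-fold above the larger frameshift library (95% exact interval 13.3 to 15.9, counting error only), so the alleles stood on opposite sides of wild-type. B0212.3 (WBGene00015037, chromosome IV, 3540172 to 3543603), known by its sequence name alone, had 179, 166 and 191 CPM in wild-type, 1218 CPM in xf58, 66.0 CPM in xf60 and 73.2 CPM in xf61. It was thus 6.81-fold above wild-type in xf58 and 2.57-fold below it in the mean of the frameshift alleles.

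At T16G12.1 (WBGene00011803, chromosome III, 10040181 to 10049857) the frameshift alleles were closer to wild-type than xf58 was. Its levels were 145, 142 and 149 CPM in wild-type, 1012 CPM in xf58, 98.0 CPM in xf60 and 144 CPM in xf61. Here xf61 was inside the wild-type range and xf60 below it, with xf58 at 6.96-fold the wild-type mean. B0261.8 (WBGene00015096, chromosome I, 5271265 to 5272041) showed the widest distance between alleles of all 186 genes. It had 318, 291 and 307 CPM in wild-type, 1006 CPM in xf58, 9.50 CPM in xf60 and 5.10 CPM in xf61, from 3728, 39 and 22 counts in the mutants. The fold of xf58 over xf60 was 106 (95% exact interval 77.3 to 149), and the wild-type mean was 41.8-fold above that of the frameshift alleles.

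The gene kel-1, which encodes a protein with Kelch repeats, had 357, 319 and 383 CPM in wild-type, 920 CPM in xf58, 61.7 CPM in xf60 and 22.9 CPM in xf61. The cuticle collagen gene col-111 had 337, 318 and 329.5 CPM in wild-type, 812 CPM in xf58, 28.0 CPM in xf60 and 13.4 CPM in xf61. At both genes xf58 was above and both frameshift alleles below the range of the wild-type libraries, and xf60 was higher than xf61. Y71F9B.13 had 115.3, 123 and 117 CPM in wild-type, 748 CPM in xf58, 26.8 CPM in xf60 and 23.6 CPM in xf61, a ratio of xf58 to wild-type of 6.33.

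Further genes of this class, chosen after their values were seen, include some with known roles outside the germline. The neuronal gene unc-33, which acts in axon growth, had 48.65, 58.4 and 59.4 CPM in wild-type, 365 CPM in xf58, 58.7 CPM in xf60 and 88.5 CPM in xf61. For gcy-35, which encodes a soluble guanylate cyclase of oxygen sensing neurons, the levels were 15.1, 14.6 and 12.7 CPM in wild-type, 103 CPM in xf58, 15.8 CPM in xf60 and 15.1 CPM in xf61. At both, the frameshift libraries were inside or above the wild-type range and xf58 far above it. In contrast, mif-2, a homolog of macrophage migration inhibitory factor, had 264, 272 and 275 CPM in wild-type, 743 CPM in xf58, 40.9 CPM in xf60 and 50.5 CPM in xf61, with both frameshift alleles under wild-type.

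**Figure D3:**
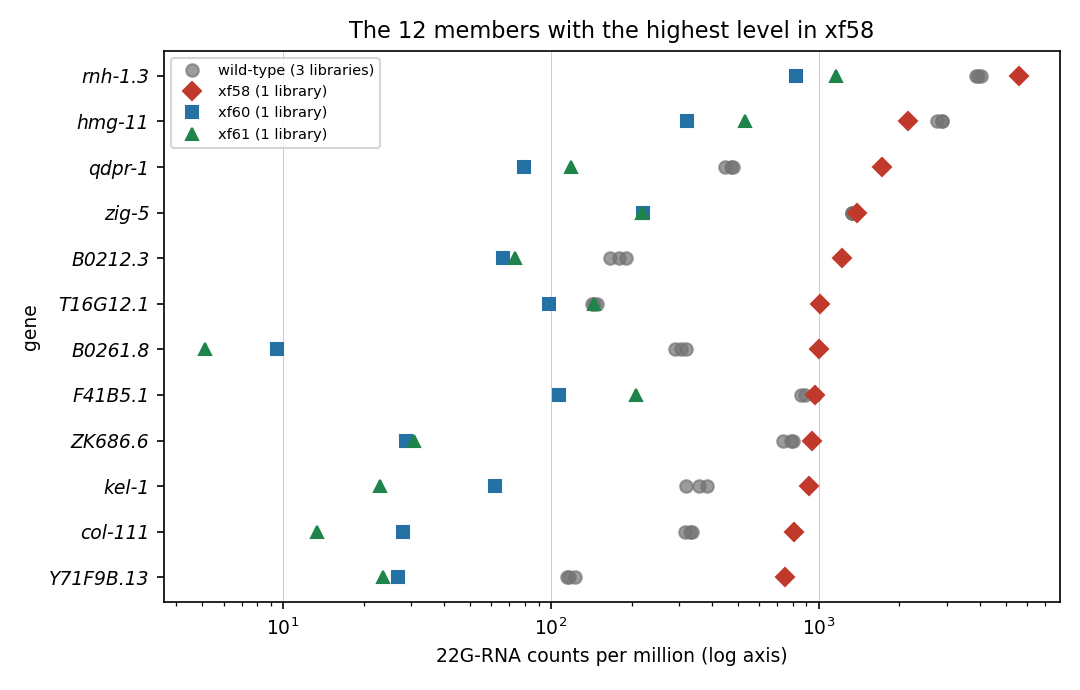
The x axis gives the 22G-RNA level in CPM on a log axis, for the 12 genes with the highest xf58 level in descending order from the top. Grey circles are the 3 wild-type libraries and coloured symbols the 1 library of each allele. The xf58 symbol lies to the right of both frameshift symbols at each gene, and to the right of the wild-type circles at all of them except hmg-11 and F41B5.1.

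The 87 genes within 2-fold of wild-type in xf58 had a median of 74.7 CPM in wild-type, 50.5 CPM in xf58, 7.56 CPM in xf60 and 8.34 CPM in xf61. The selection limits place the frameshift alleles at least 2-fold below wild-type throughout this class, and the median fold of wild-type over their mean was 8.46. This class held 48.5% of the xf58 counts of the 186 genes, and the 2 genes with the largest counts belonged to it. The gene rnh-1.3 (WBGene00007303, chromosome I, 9710088 to 9710745), of the ribonuclease H family, had 3919, 4033 and 3871 CPM in wild-type (3941 ± 83.2, SD, n = 3), 5594 CPM in xf58, 825 CPM in xf60 and 1164 CPM in xf61. Its xf58 level was 1.42-fold above wild-type, and that of the frameshift alleles 3.96-fold below. For hmg-11 (WBGene00001976, chromosome II, 4673085 to 4673746), which encodes a high mobility group protein of chromatin, the levels were 2888, 2893 and 2775 CPM in wild-type, 2150 CPM in xf58, 322 CPM in xf60 and 530 CPM in xf61. Here xf58 lay below the wild-type libraries and still 4.05-fold above xf61.

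Closest to wild-type among the highest genes was zig-5 (WBGene00006982, chromosome III, 10951119 to 10953508), which encodes a secreted protein with immunoglobulin domains. It had 1332, 1326 and 1331 CPM in wild-type, 1392 CPM in xf58, 221 CPM in xf60 and 218 CPM in xf61. The xf58 library stood just above the wild-type libraries, and the frameshift alleles were 6.06-fold below them and nearly equal to one another. F41B5.1 had 972, 862 and 885 CPM in wild-type, 965 CPM in xf58, 107 CPM in xf60 and 208 CPM in xf61, with xf58 inside the wild-type range. ZK686.6 had 801, 789 and 738 CPM in wild-type, 943.5 CPM in xf58, 28.8 CPM in xf60 and 30.8 CPM in xf61, so that the wild-type mean was 26.1-fold above the frameshift alleles.

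The 53 genes below wild-type in xf58 as well had a median of 127 CPM in wild-type, 47.2 CPM in xf58, 6.82 CPM in xf60 and 7.64 CPM in xf61. Wild-type exceeded the mean of the frameshift alleles by a median 16.4-fold, and the selection keeps this fold above 8 in every gene of the class. The order of the libraries, with xf58 between wild-type and the frameshift alleles, is likewise what defines the class and is not a finding. The class held 9.62% of the xf58 counts of the 186 genes.

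Y54G11A.14 (WBGene00013221, chromosome II, 14318158 to 14321018) had 1980, 1817 and 2043 CPM in wild-type, 409 CPM in xf58, 31.7 CPM in xf60 and 31.3 CPM in xf61. Wild-type was 4.76-fold above xf58 and 61.9-fold above the frameshift alleles at this gene. For anmt-1, which encodes an amine N-methyltransferase, the levels were 1357, 1392 and 1460 CPM in wild-type, 309 CPM in xf58, 56.3 CPM in xf60 and 59.1 CPM in xf61. The gene nfm-1, the homolog of the tumour suppressor merlin, had 762, 759 and 723 CPM in wild-type, 141 CPM in xf58, 19.7 CPM in xf60 and 23.6 CPM in xf61. The xf58 level was 5.24-fold above xf61 at anmt-1 and 5.97-fold above it at nfm-1, and no mutant library reached the wild-type range at either.

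The serpentine receptor gene srt-43, of a family of chemoreceptors, had 542, 571 and 561 CPM in wild-type, 175 CPM in xf58, 39.7 CPM in xf60 and 28.3 CPM in xf61. Y53F4B.17 had 963, 934 and 907 CPM in wild-type, 382 CPM in xf58, 4.87 CPM in xf60 and 52.8 CPM in xf61, from 20 and 228 counts in the frameshift libraries. It was the gene at which the frameshift alleles were farthest apart.

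The split into classes differed most at genes under 30 CPM in wild-type, where the selection limits act on it. Of 23 genes under 30 CPM in wild-type, 15 were more than 2-fold above it in xf58 and 0 more than 2-fold below it. The minimum of 20 CPM in xf58 leaves no room for a gene of this group to lie more than 2-fold below. It also favours those above, so these counts are not a finding. Of 81 genes from 30 to 100 CPM in wild-type, 15 were above and 20 below, and of 53 from 100 to 300 CPM, 9 and 22. Of 29 genes with at least 300 CPM in wild-type, 7 were above and 11 below. The fold of wild-type over the mean of the frameshift alleles had a median of 3.59 in the group under 30 CPM and of 15.8 in the group with at least 300 CPM, values on which the selection limits also act.

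Because a long transcript can give more 22G-RNAs than a short one, levels were also set per kilobase of exon. On this scale rnh-1.3 had the highest xf58 level, 11324 CPM per kilobase, against 7978 in the wild-type mean, 1670 in xf60 and 2357 in xf61. The next were hmg-11 with 3839, qdpr-1 with 2024, B0261.8 with 1515 and zig-5 with 1402 CPM per kilobase in xf58. T16G12.1, with 5857 bases of exon, came to 173 CPM per kilobase and held rank 46.

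The fold of xf58 over the larger of the frameshift libraries, which chose the genes, ran from 4.00 to 106 with a median of 5.61. It was under 5 at 71 genes, between 5 and 10 at 78 and at least 10 at 37. Counting error alone left the lower bound of the 95% exact interval at or above 4 for 95 of the 186 genes, and the lowest bound over all of them was 2.67. Every gene had at least 75 counts in xf58 and at least 4 in each frameshift library, and 23 genes had fewer than 20 counts in both. Just inside the limit were Y37E3.17 at 4.00, pqn-32 at 4.05 and hmg-11 at 4.05, and just outside it W08A12.2 at 3.99, C37C3.1 at 3.96 and F41H10.4 at 3.95, so that the edge of the group is not a gap in the data. pqn-32 had 125, 108 and 99.8 CPM in wild-type, 265 CPM in xf58, 60.7 CPM in xf60 and 65.5 CPM in xf61. W08A12.2, with 25.9, 30.75 and 28.0 CPM in wild-type, 32.4 CPM in xf58, 5.36 CPM in xf60 and 8.11 CPM in xf61, was left out by a narrow margin.

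After B0261.8, the widest folds were at R05G6.5, Y65B4BL.7, Y34D9A.8 and Y53F4B.12, all known by sequence name alone. R05G6.5 had 210, 207 and 223 CPM in wild-type, 435 CPM in xf58, 7.80 CPM in xf60 and 2.55 CPM in xf61, a fold of 55.7 (95% exact interval 39.3 to 81.8). Y65B4BL.7 had 51.3, 50.4 and 51.0 CPM in wild-type, 206 CPM in xf58, 3.90 CPM in xf60 and 3.24 CPM in xf61. Both were above wild-type in xf58, as B0261.8 was. Y34D9A.8 had 476, 540 and 519 CPM in wild-type, 395 CPM in xf58, 7.56 CPM in xf60 and 5.56 CPM in xf61. Its 31 and 24 counts in the frameshift libraries stood 78.1-fold below the wild-type mean, and such a distance was wider at 2 genes with lower xf58 levels, cpn-4 (82.0-fold) and F10E9.2 (97.0-fold), both chosen after their values were seen. Y53F4B.12 had 306, 294 and 288 CPM in wild-type, 495 CPM in xf58, 10.5 CPM in xf60 and 13.2 CPM in xf61.

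The libraries of xf60 and xf61 were close to one another over these genes, which the selection did not ask for beyond the limit set to both. The absolute log2 difference between them had a median of 0.25 over the 186 genes and 0.24 over the background. They were more than 2-fold apart at 10 of the 186 genes (5.38%) and at 348 background genes (4.66%). The level was higher in xf61 than in xf60 at 107 of the 186 genes, and the share over the background was not computed. The median log2 ratio to wild-type over the background was also higher in xf61 (−1.06) than in xf60 (−1.15), so nothing is read from this count. Besides Y53F4B.17, the 10 genes included, chosen after their values were seen, calf-1, which acts in the localization of calcium channels and had 24.1 CPM in xf60 and 65.3 CPM in xf61, and W03C9.1, with 14.4 CPM in xf60 and 38.7 CPM in xf61. At both, xf61 was the higher, and xf58 was above either with 375 and 687 CPM.

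**Figure D4:**
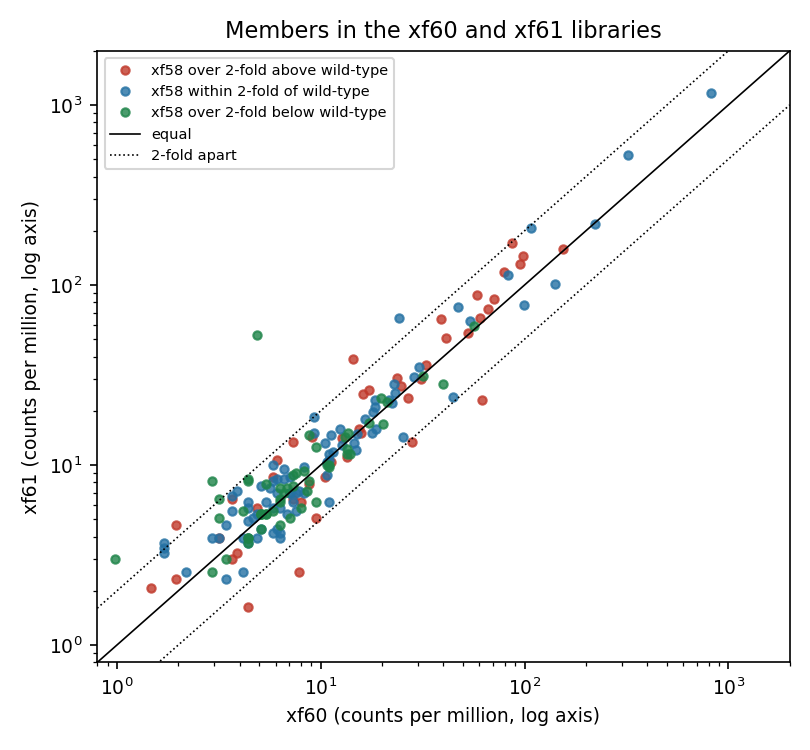
Each point is 1 of the 186 genes, with its CPM in xf60 on the x axis and in xf61 on the y axis, both log axes, and colours for its xf58 level. The solid line marks equal levels and the dotted lines a 2-fold distance, which 10 genes exceed. The point far to the upper left is Y53F4B.17.

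The same selection with the alleles exchanged took few genes. With xf60 in the place of xf58 it took 1 gene, srab-11, at 44.35 CPM in xf60 and 10.2 to 10.3 CPM in wild-type. With xf61 in that place it took 2 genes, C25D7.5 and usp-39. Either exchange asks that xf60 and xf61 lie far apart, and at a mere 4.66% of background genes were they more than 2-fold apart. These low counts thus follow from the closeness of xf60 and xf61. They are no measure for the number of genes taken with xf58. The mirror pattern, with both frameshift libraries at least 4-fold above xf58, was met by 6 genes. Among them was ckk-1, a calcium/calmodulin-dependent kinase kinase, with 1111, 1178 and 1204 CPM in wild-type, 177 CPM in xf58, 1224 CPM in xf60 and 863 CPM in xf61. Another was the potassium channel gene unc-103, with 118 to 148 CPM in wild-type, 52.1 CPM in xf58, 418 CPM in xf60 and 472 CPM in xf61. The genes of these exchanged selections were named after their values were seen. These numbers describe 3 single libraries, and no test between alleles was made, since its spread would have to be taken from wild-type alone.

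By name, 97 of the 186 genes have a sequence name only, and the share of such names in the background was not computed. Of 14 lists of gene groups, 7 held any of the genes, 8 in all. Among 92 genes of the small RNA machinery, 78 of them in the background, 1 was found, pgl-2, which encodes a component of P granules. It had 61.3, 55.7 and 57.0 CPM in wild-type, 31.8 CPM in xf58, 4.39 CPM in xf60 and 3.71 CPM in xf61, so xf58 lay between wild-type and the frameshift alleles. The median log2 ratio of the 78 background genes on this list came to −0.87 (xf58), −1.03 (xf60) and −0.92 (xf61), close to those of all background genes.

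Among 50 background genes that regulate germline mRNAs 2 were found. The Nanos family gene nos-3 had 57.0, 58.6 and 58.9 CPM in wild-type, 148 CPM in xf58, 31.2 CPM in xf60 and 29.9 CPM in xf61. The gene fem-3, which directs germ cells to the sperm fate, had 29.0, 33.6 and 33.5 CPM in wild-type, 31.8 CPM in xf58, 7.31 CPM in xf60 and 6.25 CPM in xf61. Thus xf58 was above wild-type at nos-3 and inside the wild-type range at fem-3. Of 65 background genes of meiosis and DNA repair, slx-1, which encodes a subunit of a structure-specific endonuclease, was the 1 selected. Its levels were 133, 115.2 and 129 CPM in wild-type, 42.4 CPM in xf58, 9.50 CPM in xf60 and 6.25 CPM in xf61.

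The lists of nuclear hormone receptors (68 background genes), chemoreceptors (48), collagens (24) and ubiquitin ligase subunits (49) held 1 gene each, nhr-121, srt-43, col-111 and kel-1. For nhr-121 the levels were 13.4, 12.8 and 13.7 CPM in wild-type, 25.09 CPM in xf58, 5.85 CPM in xf60 and 4.17 CPM in xf61. None of the selected genes was on the lists for the cell cycle (74 background genes), chromatin modifiers (79), C-type lectins (24) or kinases and phosphatases (53). Of all 7464 background genes 2.49% were selected, and with lists of this size counts of 0 to 2 set no list apart.

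A pair of name groups was noticed only after the values were seen, and nothing is claimed for them. Of 14 background genes of the neuropeptide families nlp, flp and ins, 4 were selected. The peptide gene nlp-12 had 60.9, 63.5 and 55.4 CPM in wild-type, 265 CPM in xf58, 15.4 CPM in xf60 and 15.7 CPM in xf61. The level of nlp-81 was 410, 405 and 428 CPM in wild-type, 388 CPM in xf58, 47.0 CPM in xf60 and 75.04 CPM in xf61. These peptide genes did not share a direction in xf58, since flp-16 had 312 to 326 CPM in wild-type and 107 CPM in xf58. Of 14 background genes named pig, which act in the synthesis of the GPI anchor of membrane proteins, pigs-1, pigc-1 and pigg-1 were selected, with 37.0, 43.2 and 39.9 CPM in xf58 and 3.94 to 9.50 CPM in the frameshift libraries.

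The study's lists of small RNA targets were at hand only for loci that changed in a further lotr-1 allele, so that they say which pathway a gene was assigned to and not how complete that is. Of the 186 genes 134 had an entry there. Of these, 110 were mutator or WAGO targets, 30 were CSR-1 targets, 15 of them in no mutator or WAGO list, and 7 were targets of the spermatogenesis Argonautes ALG-3/4. None was listed as a target of ERGO-1 or of NRDE-3. Among the 46 genes with a surplus in xf58, 20 had an entry, all 20 were WAGO targets and 0 were CSR-1 targets. In the class within 2-fold 18 of 63 genes with an entry were CSR-1 targets, and in the class below wild-type 12 of 51. No test was made, since the lists in hand were themselves chosen by a change in lotr-1. The paper places most of the genes that changed in lotr-1 mutants in the mutator or WAGO classes. The share of each class among all listed loci was not computed. These counts, with the absence of ERGO-1 and NRDE-3 targets, thus do not set the 186 genes apart from other listed loci.

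The genes lay on all autosomes, with 42 on chromosome I, 39 on II, 47 on III, 34 on IV and 24 on V. These make up 2.49%, 2.71%, 2.90%, 2.51% and 1.77% of the background genes of each. Within 1 Mb of lotr-1 lay 8 of the 186 genes and 270 background genes. The summed exon length had a median of 1340 bases (quartiles 850 and 1964), against 1486 bases (979 and 2309) in the background. Thus the genes were spread over the genome and, in the median, no longer than other genes with 22G-RNAs.

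Of the 186 genes, 28 lay within 10 kb of another, and 6 within 1 kb. How often background genes lie this close was not computed, so these counts do not set the genes apart. Downstream of qdpr-1, at a distance of 583 bases on the same strand, lay F11F1.1, with 19.7, 15.3 and 17.4 CPM in wild-type, 55.0 CPM in xf58, 8.77 CPM in xf60 and 7.87 CPM in xf61. It shared the surplus in xf58 with its neighbour, at a far lower level, but was a mere 2.096-fold below wild-type in the frameshift alleles. T14G10.8 and pigs-1, a GPI anchor gene, are 112 bases apart on 1 strand. T14G10.8 had 29.5, 29.2 and 26.9 CPM in wild-type, 59.1 CPM in xf58, 1.95 CPM in xf60 and 2.32 CPM in xf61, and pigs-1 had 25.9, 25.9 and 24.0 CPM in wild-type, 37.0 CPM in xf58, 6.34 CPM in xf60 and 3.94 CPM in xf61.

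The genes R05G6.5 (chromosome IV, 7508367 to 7509546) and plc-4 (7509524 to 7512667), which encodes a phospholipase C, overlap at their ends on opposite strands. In plc-4 the levels were 291, 326 and 303 CPM in wild-type, 112 CPM in xf58, 21.2 CPM in xf60 and 22.5 CPM in xf61. The pair differed in direction, since xf58 was 2.04-fold above wild-type at R05G6.5 and wild-type 2.74-fold above xf58 at plc-4. As the counts are of reads antisense to exons, reads of the overlap can be assigned by strand.

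The comparison that the study's design sets, with the 3 alleles as replicates against wild-type, used the libraries that chose the genes, so its calls are given here with nothing read from them. With edgeR's quasi-likelihood test, 58 of the 186 genes were called down-regulated (17.6% of the 9285 loci tested) and 8 up-regulated (18.8%). For xf60 and xf61 alone against wild-type, 151 genes were called down-regulated (22.4% of 9647 loci tested) and 3 up-regulated (19.9%). The 3 were gcy-35, unc-33 and C55C3.3, named after their values were seen. A call needed a fold over 2 after TMM scaling and a p under 0.1 once adjusted by Benjamini and Hochberg. The split between directions moved with the scaling, and with total counts in place of TMM the same fits called 98 of the genes down and 2 up over all alleles, beside 4149 and 806 of the 9285 loci tested. In the frameshift alleles they called 172 of the genes down, beside 4820 of 9647 loci. The xf58 library moved the first count most, since without it 154 genes were called in either direction in place of 66, beside 4086 of 9647 loci in place of 3380 of 9285. The dispersion that edgeR estimated was 0.00181 among wild-type libraries and 0.125 among the mutants.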

How the data were processed

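Adapters were removed with cutadapt 2.4, reads were mapped with Bowtie 1.2.2 on WBcel235 and 22G-RNAs were assigned with featureCounts 1.6.2 (submitters' processing notes). The deposited values are counts, whole numbers per gene or transposon family that the authors did not normalize. A read matching several places equally well went to 1 of them at random, so close paralogs can exchange reads. Groups came from the sample labels. CPM used library totals of 3706296 to 4520488 counts. Log2 ratios used a prior count of 2, and intervals are exact binomial (Clopper-Pearson) and cover counting error only. Loci were compared with edgeR 4.0.16 in R 4.3.3 (TMM, filterByExpr, quasi-likelihood test, Benjamini-Hochberg adjustment), with DESeq2 1.42.0 as an alternative. The script was tested on simulated counts. Nothing in the labels says whether the wild-type libraries are separate cultures, so the spread among them may be technical. The genes and lists were chosen with earlier results of these data known. Genes named are lotr-1, the 12 with the highest xf58 level, the 5 highest of each class, the 5 largest folds, those next to the limit, those on the lists and up to 6 with a near neighbour, and others are said to have been chosen after their values were seen. Alternatives changed the scaling, the selection limits, the prior count, the tool, the filter, the block and the libraries used. Positions, exon lengths and names are from Ensembl release 115, where 171 IDs had no match. Base composition was not analysed here, and no sequence is printed. Figures were drawn with matplotlib 3.10.9.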

Additional observations from a re-analysis of the deposited data

Results flagged for a closer look

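At 29 of the 186 genes the alleles stood on opposite sides of wild-type, with xf58 more than 2-fold above the wild-type mean and both xf60 and xf61 more than 2-fold below it. With TMM scaling the number was 27. B0261.8, qdpr-1, col-111 and kel-1 are among them. The difference between the alleles was not tested, since each has 1 library. A gene with this pattern meets the fold limits between the alleles by definition. The selection thus took every such gene that met its other limits, and the count is not a trait of the 186 genes. The share of background genes with this pattern was not computed.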

How the results depend on the processing

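The number of genes selected was 186. It was 116 with TMM factors and 122 with DESeq2 size factors, of which 109 and 116 were among the 186. With 2-fold and 8-fold limits it was 662 and 50, with a minimum of 50 CPM 105, and with a 2-fold band around wild-type 87. Without single libraries it ranged from 186 to 264. The median log2 ratio to wild-type was −0.47 in xf58, and it changed sign with TMM factors (0.22) and size factors (0.14). The median was −0.45 with totals without transposons, −0.46 with a prior count of 5, and −0.52 to −0.44 without single wild-type libraries. For xf60 it was −3.15, with TMM factors −2.14, size factors −2.23, totals without transposons −3.09, prior counts of 0.5 and 5 −3.22 and −3.06, and −3.19 to −3.14 without single wild-type libraries. For xf61 it was −3.10, and −2.17, −2.28, −3.04, −3.15 and −2.98 in the same order, with −3.11 to −3.09 without single wild-type libraries. With totals without transposons, the genes held 4.61%, 0.531% and 0.659% of the counts in xf58, xf60 and xf61. The genes more than 2-fold below wild-type in xf58 numbered 53, and 13 with TMM factors and 15 with size factors. In the fit of all alleles, 66 of the genes were called (3380 loci in all), 100 with total counts (4955 loci) and 35 to 154 without single libraries. The count was 37, 37 and 35 without wild-type replicates 1, 2 and 3 (3362, 3290 and 3307 loci), and 154 without xf58 (4086 loci). Fit with a replicate block, 103 of the genes and 3416 of all loci were called, against 3380 without it. Same-numbered libraries had correlations of their deviations of 0.0083, 0.0339 and −0.0343. Each replicate number of the mutants is also a different allele, so these values cannot tell whether the numbers pair the libraries. The numbers of loci called, and the 154 genes called for xf60 and xf61, stayed within 1.5 times in every other setting run. The log2 ratio of xf58 over the frameshift alleles kept its sign under the alternatives run at the 32 genes that the naming rule gave. It was not recomputed for the others. The selection had placed xf58 far above both frameshift libraries at each gene, so a change of sign was hardly possible. The kept sign is thus set by the selection and is not a finding.

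Depth limits the lower end, where 23 genes had fewer than 20 counts in both frameshift libraries. The main limit is 1 library per allele.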
